A study of Mus musculus with 2 samples.

Results

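The genes of muscle contraction on this array numbered 68 of the 19532 genes measured. They were taken by symbol, not by value. The set held the myosin heavy and light chains with a number in their symbol, the troponins, the myosin-binding proteins C, the ryanodine receptors, the calsequestrins, the myozenins and the leiomodins. A fixed list added the muscle actins, the tropomyosins, alpha-actinins 2 and 3, titin, calponin, transgelin, smoothelin, myosin light chain kinase, phospholamban, sarcolipin, the natriuretic peptides and the muscle creatine kinases. The study set untreated, uncultured mouse lung against mouse embryonic fibroblasts (MEF, fibroblasts grown from embryos) kept in DMEM with 10% fetal bovine serum. Lung samples 1 and 2 were each hybridised with MEF RNA on an array of their own, with lung in Cy3 and MEF in Cy5 and no dye swap. The labels give no strain, age or sex, and do not say whether the lungs came from separate animals or the MEF RNA from separate cultures. The p-values therefore measure only the spread between 2 samples, which may be technical.

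Striated muscle contracts when myosin heads pull on actin filaments inside sarcomeres, repeated units that Z-discs anchor and titin spans. Calcium released through ryanodine receptors binds troponin, which shifts tropomyosin and exposes actin. Smooth muscle has no troponin, and there calcium acts through myosin light chain kinase on the regulatory light chain. Cardiac, skeletal and smooth muscle use different genes of the same families, and related forms drive movement and tension in nonmuscle cells. Mouse lung contains smooth muscle around airways and vessels, and heart muscle cells extend along its larger pulmonary veins. Fibroblasts in culture commonly express smooth muscle actin and other genes of stress fibres.

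All values are log2 ratios of lung over MEF, averaged over the probes of a gene, so a value of 1 is 2-fold higher in lung. The direction is likely rather than stated. The sample titles and the study design describe lung compared with MEF, and all 11 measured genes of a lung epithelial list were positive, from 4.43 for the surfactant gene Sftpb to 7.70 for Sftpd. Agilent's own convention for these dyes would be the reverse, and were it used every higher and lower below would be exchanged. The deposited values reached 10.1 in size and were read as log2. As natural logarithms they would give larger folds. Across all genes the arrays correlated with r = 0.981, and the median of all genes was -0.22 on lung 1 and -0.14 on lung 2. A ratio compares the RNA pools, so fewer cells of a type and less RNA per cell cannot be told apart. Channel intensities were not used here, so which ratios rest on a dim channel is not known.

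Cardiac genes of contraction, with those shared by cardiac and skeletal muscle, were mostly higher in lung. Smooth muscle genes were mostly lower, while skeletal and nonmuscle genes were called in both directions. These roles were assigned with earlier results of these data known. By limma's moderated test with Benjamini-Hochberg adjustment over all genes, 33 of the 68 (48.5%) were higher in lung at an adjusted p of 0.05 or below, against 32.6% of all genes. Another 28 (41.2%) were lower, against 43.6% of all genes, and 7 did not pass. That test passed 76.2% of all genes, so 2-fold counts or medians are given beside its calls. Its calls rest on moderation, and without it 14 of the 68 were higher and 13 lower. With each array shifted so that the odorant and pheromone receptor genes centre on 0, 63.6% of all calls were higher, against 42.8% as deposited, and for the 68 genes 62.3%, against 54.1%. On both arrays 24 of the 68 were at least 2-fold higher, or 35.3% against a background of 17.1%. A further 15 were at least 2-fold lower on both arrays, or 22.1% against 15.4%. Their adjusted p-values by limma were at most 0.0317. The 68 genes had a median of 0.16 beside -0.21 for all genes, and a median size regardless of sign of 1.66 beside 0.67.

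Both arrays gave close values for these genes. All 68 had the same sign on both, and the median gap between the arrays was 0.082 log2 units, beside 0.081 for all genes. The arrays differed by more than 0.5 for 3 genes, Myl10, Casq1 and Tnnt2. As a yardstick for genes that neither sample is known to use, the olfactory and vomeronasal receptor genes, 1044 in number, had their central 95% between -1.39 and 1.22 on lung 1 and between -1.44 and 1.24 on lung 2. Above that range on both arrays lay 24 of the muscle genes, against 14.6% of all genes, and below it lay 14, against 8.91%. All 24 genes that were 2-fold higher were above this range. Of the 15 that were 2-fold lower, Casq1 alone was within it on 1 array. Limma's test itself called 547 of the 1044 receptor genes lower (52.4%) and 63 higher (6.03%), and their median was -0.42. On both arrays 69 of them were 2-fold lower (6.61%). A call of lower at a small ratio was therefore common among the receptor genes too.

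**Figure D1:**
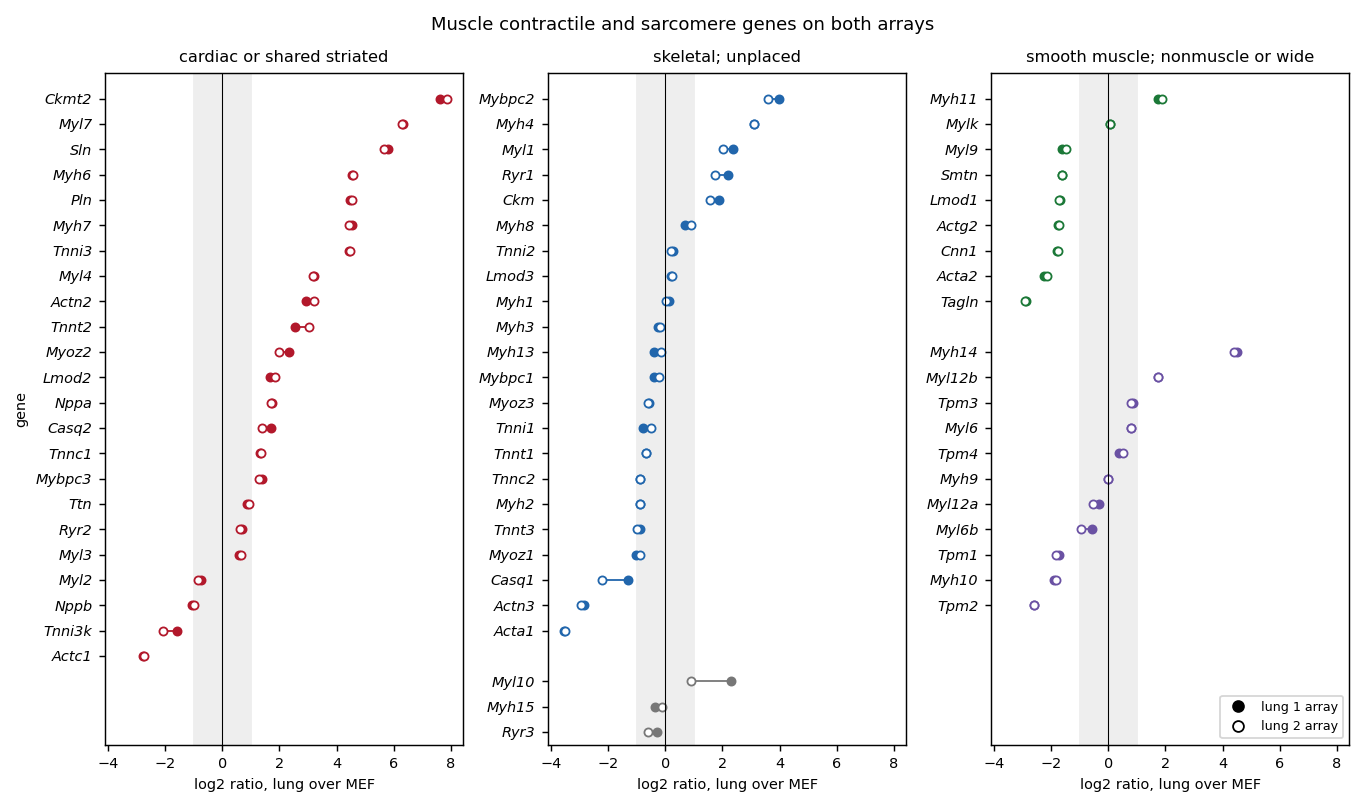
Log2 ratio of lung over MEF (x axis) for each of the 68 genes (rows), with filled points for the lung 1 array and open points for lung 2, grouped and coloured by role. The grey band marks ratios under 2-fold. Cardiac or shared striated genes lie mostly to the right, from Ckmt2 at 7.73 down to Actc1 at -2.75. To the left of the band lie 7 of 9 smooth muscle genes.

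Promoters are shown before the values of single genes, because many genes of contraction are known targets of serum response factor (SRF), which binds a motif named the CArG box. RefSeq promoter windows (250 bases before to 50 after the gene start, build GRCm38.p6) were on hand for 57 of the 68 genes. They were missing for Actg2, Actn3, Lmod3, Myh11, Myoz1, Myoz3, Ryr3, Sln, Tagln, Tnni2 and Tnnt3. The exact CArG box, searched on both strands, was in the windows of 8 of the 57 genes (14.0%), against 1.81% of all genes with a window. Among genes 2-fold lower in lung it was in 3 of 12 windows, and among those 2-fold higher in 2 of 22 genes. The windows of these 5 genes follow, 5′ to 3′ on the strand of the gene, with the CArG box in capitals.
Acta1 (chr8:123894726-123895025, minus strand): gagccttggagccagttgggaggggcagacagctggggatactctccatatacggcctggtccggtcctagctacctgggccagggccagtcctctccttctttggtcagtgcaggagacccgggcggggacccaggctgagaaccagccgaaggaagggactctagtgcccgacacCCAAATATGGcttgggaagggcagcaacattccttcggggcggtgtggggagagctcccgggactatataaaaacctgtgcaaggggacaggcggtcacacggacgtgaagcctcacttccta
Actc1 (chr2:114052826-114053125, minus strand): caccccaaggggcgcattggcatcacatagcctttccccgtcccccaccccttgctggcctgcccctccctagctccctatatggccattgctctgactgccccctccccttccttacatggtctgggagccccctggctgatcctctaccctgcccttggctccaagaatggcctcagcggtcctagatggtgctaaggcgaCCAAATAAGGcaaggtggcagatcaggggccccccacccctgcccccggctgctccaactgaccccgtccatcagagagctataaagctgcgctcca
Myl9 (chr2:156775214-156775513, plus strand): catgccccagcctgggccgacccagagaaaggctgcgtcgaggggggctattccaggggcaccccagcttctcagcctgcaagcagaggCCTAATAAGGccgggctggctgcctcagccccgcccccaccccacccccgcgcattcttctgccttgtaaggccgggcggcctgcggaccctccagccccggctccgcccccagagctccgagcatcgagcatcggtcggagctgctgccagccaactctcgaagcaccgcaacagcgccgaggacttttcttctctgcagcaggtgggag
Myh4 (chr11:67237562-67237861, plus strand): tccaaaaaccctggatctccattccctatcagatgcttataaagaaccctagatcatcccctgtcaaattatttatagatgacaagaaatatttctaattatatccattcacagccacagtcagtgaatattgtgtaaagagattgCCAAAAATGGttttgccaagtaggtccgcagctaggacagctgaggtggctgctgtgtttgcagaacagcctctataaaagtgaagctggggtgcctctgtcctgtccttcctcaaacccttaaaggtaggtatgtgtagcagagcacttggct
Myl7 (chr11:5898733-5899032, minus strand): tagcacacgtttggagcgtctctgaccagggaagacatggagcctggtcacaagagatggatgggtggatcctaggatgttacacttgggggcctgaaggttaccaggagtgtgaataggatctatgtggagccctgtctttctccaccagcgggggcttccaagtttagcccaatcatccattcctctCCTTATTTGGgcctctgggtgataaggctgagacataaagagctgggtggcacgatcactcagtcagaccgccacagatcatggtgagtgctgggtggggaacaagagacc
The box began 73 bases before the start in Acta1, 47 in Actc1 and 161 in Myl9, all lower in lung, and 104 in Myh4 and 61 in Myl7, both higher. It thus stood in promoters of genes that differed in opposite directions. The MCAT element (CATTCC on either strand, bound by TEAD factors) was in the windows of 22 of the 57 genes (38.6%), against 16.6% of all genes. It was found in 7 of the 12 genes that were 2-fold lower and in 8 of the 22 that were 2-fold higher. The site of MEF2, a muscle transcription factor family, was in 8 of the 57 (14.0%), against 3.7% of all genes, and 4 of those 8 were 2-fold higher. No window of these genes held overlapping matches of different motifs. A match is a run of letters only, and binding was not measured. The motifs and the windows printed were chosen after the ratios had been seen.

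The thick filament of heart muscle gave some of the highest ratios. Myl7, the regulatory light chain of the atria, was at 6.32 on lung 1 and 6.27 on lung 2, or 78.5-fold higher (6.30 ± 0.03, SD, n = 2; limma adjusted p = 0.00161), and ranked 98 of all 19532 genes. Its partner Myl4, the atrial essential light chain, was at 3.20 and 3.17, with its 2 probes at 2.71 and 3.66. The heavy chains Myh6 (alpha, the fast cardiac form) and Myh7 (beta, the slow form) were at 4.55 ± 0.03 and 4.48 ± 0.07. Both probes of each agreed, at 4.12 and 4.98 for Myh6 and at 4.39 and 4.57 for Myh7, though the genes are near-identical neighbours and their probes may share signal. The ventricular light chains went otherwise. Myl2, the ventricular regulatory chain, was at -0.73 and -0.84, or 1.72-fold lower. Myl3, the ventricular and slow essential chain, averaged 0.64, but its probes stood at 2.45 and -1.17, both annotated to the same kind of RefSeq mRNA, so its mean is uncertain.

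The 3 cardiac troponins were higher, and so were Sln, Pln, Casq2 and Ryr2, calcium proteins of the heart among the 68 genes. Tnni3, the cardiac inhibitory troponin, was at 4.43 and 4.46, or 21.8-fold higher, and its probes agreed at 4.10 and 4.78. Tnnt2, which ties troponin to tropomyosin, was at 2.54 on lung 1 and 3.04 on lung 2, and its RefSeq-annotated probe alone was at 3.79. The calcium sensor Tnnc1 was 2.54-fold higher. Sarcolipin (Sln) and phospholamban (Pln), small inhibitors of the calcium pump that refills the sarcoplasmic reticulum, were 52.9-fold and 22.6-fold higher. Sln was at 5.80 and 5.65 and Pln at 4.46 and 4.54, so both arrays placed Sln above Pln in ratio. The cardiac calsequestrin Casq2, which buffers calcium in the store, was at 1.70 and 1.38. The release channel Ryr2 averaged 0.66 over 4 probes that ran from -0.28 to 2.65. Outside the 68 genes and chosen after their values were seen, the pump Atp2a2 that Sln and Pln inhibit was at -0.13 and -0.03 and did not pass, and the sodium-calcium exchanger Slc8a1 was lower at -0.63 and -0.55. The store anchor Jph2 and the calcium channel subunit Cacna1c were lower too, at -1.95 and -1.30. Their list, of calcium handling and excitation, had 10 of 21 genes higher (47.6%, against 32.6% of all genes) and 7 lower (33.3%, against 43.6%). Hrc at 2.58, Trdn at 1.68 and Srl at 0.60 were among its higher genes.

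Ckmt2, the mitochondrial creatine kinase of sarcomeric muscle, had the highest ratio of the 68 genes. It was at 7.60 on lung 1 and 7.86 on lung 2, or 212.5-fold higher, and ranked 17 of all genes, on a single probe. Its cytosolic counterpart Ckm was 3.30-fold higher (1.87 and 1.57). At the Z-disc, alpha-actinin 2 (Actn2) was at 2.94 and 3.21 and myozenin 2 (Myoz2), which binds calcineurin there, at 2.33 and 1.97. The actin nucleator Lmod2 was at 1.78, cardiac myosin-binding protein C (Mybpc3) at 1.34 and the atrial natriuretic peptide gene Nppa at 1.73. Nppb, the B-type natriuretic peptide, was lower at -1.07 and -0.99.

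Of the 23 cardiac or shared striated genes, limma's test called 19 higher (82.6%, against 32.6% of all genes) and 4 lower (17.4%, against 43.6%). On both arrays 16 were 2-fold higher (69.6%, against 17.1%) and 2 were 2-fold lower (8.7%, against 15.4%). Their median was 1.78. The 4 lower genes were Actc1, Tnni3k, Nppb and Myl2. Actc1, the actin of the cardiac thin filament, was at -2.76 and -2.75, or 6.74-fold lower, while the 3 cardiac troponins and both cardiac heavy chains were higher. Tnni3k, a kinase that binds cardiac troponin I, was at -1.59 and -2.06. Markers of atrial and pulmonary vein heart muscle cells (15 genes, 11 of them among the 68) had 13 higher (86.7%) and 2 lower (13.3%). Their median was 2.00. Of the 4 that are not among the 68, the connexin Gja5 was at 2.00, Tbx5 at 0.73 and the channel gene Kcnj3 at 0.31, while the heart transcription factor Nkx2-5 was lower at -0.85. The 5 ventricular markers had 3 higher (60.0%) and 2 lower (40.0%) and a median of 0.64. Among them the ventricular factor Irx4 was at -0.67 and Hey2 at 1.33. Whether heart muscle cells in the lung pieces account for these values was not tested.

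**Figure D2:**
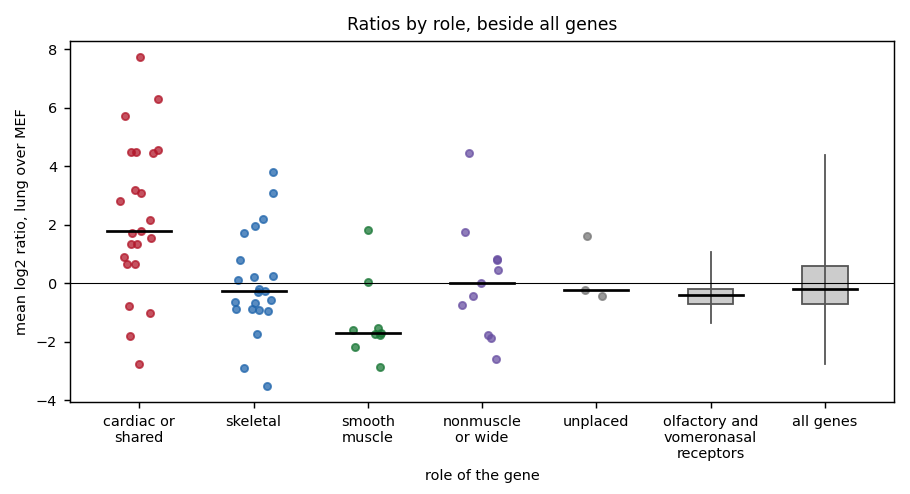
Mean log2 ratio of lung over MEF (y axis) of each gene by role (x axis), with black lines for medians. The boxes of the receptor genes and of all genes span the quartiles and their thin lines the central 95%. The median is 1.78 for cardiac or shared genes, -0.29 for skeletal, -1.70 for smooth muscle and -0.21 for all genes.

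The 4 muscle actins were lower in lung, each by over 2-fold on both arrays. The cytoplasmic actins, which are not among the 68 and were chosen after their values were seen, were also lower, Actb at -0.57 and Actg1 at -1.40. Acta1, the skeletal alpha-actin, had the lowest ratio of the 68 at -3.53 and -3.51, or 11.5-fold lower (adjusted p = 0.00161 by limma). Acta2, the smooth muscle alpha-actin, was at -2.24 and -2.16, and Actg2, the enteric smooth muscle form, at -1.76 and -1.74. The actin coding sequences are near-identical, so a probe may detect more than 1 of them. Acta2 had 5 probes, 4 of them between -4.49 and -2.08 and 1 at 1.36. The probe at 1.36 is annotated to a cDNA outside RefSeq, and with RefSeq-annotated probes alone Acta2 stood at -3.26.

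Smooth muscle genes were lower in lung apart from the heavy chain gene and the kinase. Transgelin (Tagln), an actin-binding protein of smooth muscle and cultured fibroblasts, was at -2.86 and -2.91, or 7.39-fold lower, with both probes below -2.7. Calponin 1 (Cnn1), which restrains the actin-activated myosin ATPase, was at -1.79 and -1.76. Leiomodin 1 (Lmod1) was at -1.68 and -1.72 and smoothelin (Smtn) at -1.63 and -1.60. The regulatory light chain Myl9 was at -1.60 and -1.46. These genes were 2.90- to 7.39-fold lower and their arrays differed by at most 0.14. In contrast Myh11, the smooth muscle myosin heavy chain, was higher at 1.74 and 1.87, or 3.49-fold, on a single probe (adjusted p = 0.00232 by limma). Mylk, the kinase that starts smooth muscle contraction, averaged 0.05 over 3 probes and did not pass. It passed as higher with median centring (0.23), with receptor centring (0.47) and with RefSeq-annotated probes alone (0.20), with adjusted p-values by limma of 0.0409, 0.00643 and 0.0315.

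In all, 7 of the 9 smooth muscle genes were lower (77.8%, against 43.6% of all genes) and 1 was higher (11.1%, against 32.6%). Another 1 did not pass. The same 7 and 1 were at 2-fold on both arrays, against 15.4% and 17.1% of all genes. The median was -1.70. The wider list of smooth muscle markers held 12 genes, 7 of them among these 9. Of the 12, 7 were lower (58.3%, against 43.6% of all genes), 3 were higher, against 32.6%, and 2 did not pass. On both arrays 6 of the 12 were 2-fold lower, against 15.4% of all genes, and 2 were 2-fold higher (16.7%, against 17.1%). Beside Myh11 the list's higher genes were the actin-bundling Synpo2 (1.40) and myocardin (Myocd, 0.53), the cofactor that drives smooth muscle genes with SRF. Genes of cultured and activated fibroblasts were counted too. All 16 on that list were lower, against 43.6% of all genes, from -7.62 for the collagen gene Col1a1 to -0.56 for S100a4. On both arrays 15 of these fibroblast genes were 2-fold lower (93.8%, against 15.4%), and their median was -5.10. Their part in the smooth muscle values was not tested. Pericyte markers split, with 5 of 9 higher (55.6%, against 32.6% of all genes), 3 lower (33.3%, against 43.6%) and 1 not passed. On both arrays 3 were 2-fold higher (33.3%, against 17.1%) and 2 were 2-fold lower (22.2%, against 15.4%), and the median was 0.79. Higd1b was at 5.41 and Kcnj8 at 3.17, while Rgs5 was at -2.58 and Cspg4 at -1.98.

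Skeletal muscle genes had shares near those of all genes. Of 22, limma's test called 8 higher (36.4%, against 32.6% of all genes) and 12 lower (54.5%, against 43.6%). On both arrays 5 were 2-fold higher (22.7%, against 17.1%) and 3 were 2-fold lower (13.6%, against 15.4%), and their median was -0.29. Mybpc2, the fast form of myosin-binding protein C, was at 3.99 and 3.60, or 13.9-fold higher, and Myh4, the fast 2B heavy chain, at 3.09 and 3.11. Myl1, the fast essential light chain, was at 2.35 and 2.01, and the release channel Ryr1 at 2.19 and 1.75. Ryr1 rested on RefSeq-annotated probes at 2.95 and 3.28 and on another probe at -0.32. In contrast the fast Z-disc protein Actn3 was at -2.82 and -2.96, or 7.42-fold lower. Casq1, the skeletal calsequestrin, was also lower, with the arrays well apart at -1.30 and -2.19.

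The skeletal troponins had smaller ratios than the cardiac ones, and 4 of the 5 were lower in lung. Tnnt3 and Tnnt1, the fast and slow tropomyosin-binding subunits, were at -0.93 and -0.67. Tnnc2, the fast calcium sensor, was at -0.87, and Tnni2, the fast inhibitory subunit, was higher at 0.25. The slow inhibitory subunit Tnni1 averaged -0.65 with probes at -1.87 and 0.58, and with receptor centring it stood at -0.23 and did not pass (adjusted p = 0.16 by limma). The other fast-fibre Z-disc genes Myoz1 and Myoz3 were at -0.95 and -0.58. All of these lay within the range of the receptor genes. Of the 16 skeletal muscle markers, 14 are among the 68. They had 6 higher (37.5%, against 32.6% of all genes), 7 lower (43.8%, against 43.6%) and 3 not passed. On both arrays 4 of the 16 were 2-fold higher, against 17.1% of all genes, and 3 were 2-fold lower (18.8%, against 15.4%). Their median was -0.13.

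The sarcomeric heavy chain genes that lie side by side on chromosome 11 gave unlike values. In the order of the RefSeq GRCm38.p6 table they were Myh3 (embryonic, -0.22), Myh2 (2A, -0.89), Myh1 (2X, 0.09), Myh4 (2B, 3.10), Myh8 (perinatal, 0.80) and Myh13 (extraocular, -0.26). Within this run Myh4 alone was 2-fold apart on both arrays, and its probes stood at 2.87 and 3.33. Myh8 had 1 of its 4 probes at 2.96 and the others between -0.49 and 0.44. Sequence is close to identical across these genes, and shared signal between them was not tested. With the arrays centred on the receptor genes, Myh3 and Myh13 changed sign, to 0.20 and 0.15.

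Within families, the cardiac or shared striated form usually had the larger ratio. The 68 genes hold 12 families with both a cardiac or shared striated form and a skeletal form. In 9 of the 12, each cardiac or shared form lay above every skeletal form on both arrays. The gap was wide for alpha-actinin (Actn2 at 3.08, Actn3 at -2.89), for calsequestrin (Casq2 at 1.54, Casq1 at -1.75) and for troponin I (Tnni3 at 4.44, Tnni2 at 0.25). The alpha-actins kept that order although both forms were lower in lung. The 3 exceptions were myosin-binding protein C (Mybpc2 13.9-fold and Mybpc3 2.52-fold higher), the ryanodine receptors (Ryr1 at 1.97, Ryr2 at 0.66) and the essential light chains. In the light chains Myl4 (3.18) lay above Myl1 (2.18) and Myl3 (0.64) below it, so that exception rests on Myl3, whose probes disagree. The genes compared here were set as families after their values were known, so the count is a description. Some forms on the cardiac side are shared with skeletal muscle, so the count does not set heart alone against skeletal muscle.

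Nonmuscle and widely expressed genes separated by isoform. The 3 nonmuscle heavy chains, which drive cell tension and division, had unlike ratios. Myh14 (IIC) was at 4.49 and 4.41, or 21.9-fold higher, with probes at 5.49 and 3.41. Myh9 (IIA) was at -0.0044 and -0.0015 and did not pass, and it turned to 0.41 with receptor centring and to 0.18 with median centring. Myh10 (IIB) was at -1.91 and -1.83, or 3.66-fold lower, and its RefSeq-annotated probes alone gave -2.68.

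Tropomyosins, which lie along actin filaments, also divided. Tpm2 was at -2.60 on both arrays, or 6.08-fold lower, and Tpm1 at -1.73 and -1.82. Tpm3 and Tpm4 were higher at 0.83 and 0.43, under 2-fold. Of the 4 Tpm1 probes, 3 stood between -2.59 and -2.42 and 1 at 0.36, all annotated to RefSeq mRNAs. The light chain Myl6, shared by smooth and nonmuscle myosin, was 1.72-fold higher. Of its regulatory partners, Myl12a was at -0.43, a call lost with either centring, and Myl12b averaged 1.74 over probes at 0.34 and 3.15. These 2 genes are close copies, and their values are uncertain. Myl6b was at -0.56 and -0.95. Of the 11 genes in this group 5 were higher (45.5%, against 32.6% of all genes), 5 lower (45.5%, against 43.6%) and 1 not passed. On both arrays 2 were 2-fold higher (18.2%, against 17.1%) and 3 were 2-fold lower (27.3%, against 15.4%).

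Myl10, Ryr3 and Myh15 were set apart from the skeletal genes after their values had been seen, because they have no settled place in 1 kind of muscle. They and the remaining genes were under 2-fold or uneven between arrays. Titin (Ttn), the spring of the sarcomere, averaged 0.90, but its 10 probes fell apart, with 3 between 2.87 and 3.28 and the other 7 between -0.79 and 0.99. Lmod3 was at 0.22, and Mybpc1, the slow myosin-binding protein C, was at -0.31 and turned to 0.11 with receptor centring. Myl10 was at 2.32 on lung 1 and 0.90 on lung 2 and did not pass. Ryr3, on 6 probes, was at -0.28 and -0.61, and Myh15 was at -0.36 and -0.10. Neither passed, and Myh15 turned to 0.18 with receptor centring. Probes of other genes gave nearly the same pair of values as Myh15. They included the only probe of Myh13 (-0.37 and -0.15), a probe of Myh10 (-0.37 and -0.14) and a probe of Ryr3 (-0.36 and -0.13). Whether such values rest on dim channels was not tested.

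Probes for the same gene often gave unlike ratios. Of the 68 genes 33 had more than 1 probe, and in 17 of them the probes spanned at least 1 log2 unit. In 12 genes probes lay on both sides of 0, and in Acta2 and Myl3 they were 2-fold apart from 0 in both directions. The median size of the ratios differed with the probe annotation, and whether annotation accounts for the spread within genes was not tested. Probes of Myl3, Tpm1, Tnni1 and Myl12b differed within RefSeq-annotated probes alone. The 108 probes annotated to RefSeq mRNAs had a median size, regardless of sign, of 1.69, and 69 of them were at least 2-fold. The 19 annotated to other cDNAs had a median size of 0.28, and 4 were at least 2-fold. Within the 12 genes with both kinds, the medians were 0.99 over 31 RefSeq probes and 0.28 over 16 others. Over all named probes on the array the medians were closer, 0.77 over 26087 RefSeq probes and 0.59 over 6577 others. With RefSeq-annotated probes alone, Myoz2 was at 4.09, Ryr1 at 3.11, Ryr2 at 1.61, Myh8 at 1.70 and Ttn at 1.17, each larger than its mean over all probes.

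**Figure D3:**
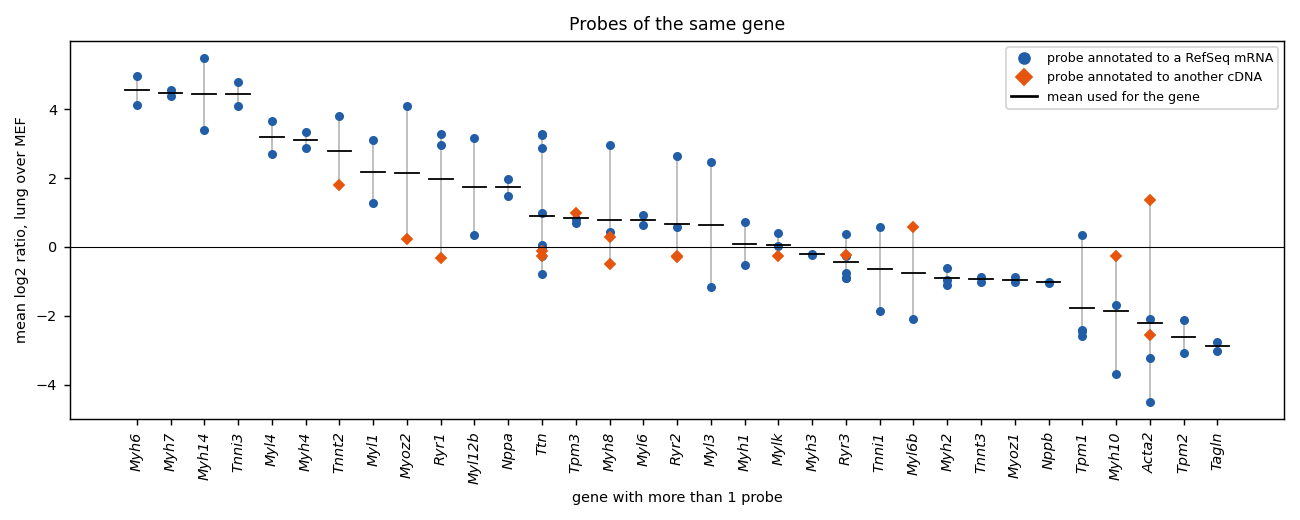
Mean log2 ratio of lung over MEF over both arrays (y axis) for every probe of the 33 genes with more than 1 probe (x axis). Blue circles are probes annotated to RefSeq mRNAs, orange diamonds probes annotated to other cDNAs, and black bars the mean used for the gene. Acta2 has 1 probe at 1.36 above 4 probes at -2.08 or below, and the 10 Ttn probes run from -0.79 to 3.28.

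Other genes of muscle outside the 68 were counted from 5 lists. Of 28 further sarcomere, Z-disc and costamere genes, 13 were higher (46.4%) and 10 lower (35.7%), against 32.6% and 43.6% of all genes. On both arrays 11 were 2-fold higher (39.3%, against 17.1%) and 5 were 2-fold lower (17.9%, against 15.4%). Nebulette (Nebl), the cardiac Z-disc relative of nebulin, was at 5.81, the Z-disc LIM protein Csrp3 at 5.01 and the actin-capping tropomodulin Tmod1 at 3.90. At the other end stood Flnc (filamin C, -3.16), Palld (palladin, -2.43) and Fhl2 (-1.81), proteins that bind or cross-link actin or sit at adhesions. Of 21 genes of calcium handling and excitation, 10 were higher (47.6%, against 32.6% of all genes) and 7 lower (33.3%, against 43.6%). On both arrays 7 were 2-fold higher (33.3%, against 17.1%) and 4 were 2-fold lower (19.0%, against 15.4%), and the median was 0.13. Kcnj8 (3.17), the histidine-rich calcium-binding protein Hrc (2.58) and the sodium pump regulator Fxyd1 (2.15) were highest. Jph2, which holds the calcium store near the cell membrane, the channel gene Kcnj5 (-1.90) and Cacna1c were lowest.

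Of 30 genes of smooth muscle contraction and its regulators, 12 were higher (40.0%) and 12 lower (40.0%), against 32.6% and 43.6% of all genes. On both arrays 9 of the 30 were 2-fold higher, against 17.1% of all genes, and 6 were 2-fold lower, against 15.4%. Both 2-fold shares lay above those of all genes, and the median was -0.06. The smoothelin-like genes Smtnl2 (5.35) and Smtnl1 (3.39) and the intermediate filament gene Synm (3.69) were highest. Caldesmon (Cald1, -2.83), alpha-actinin 1 (Actn1, -2.56) and the small heat shock protein Hspb6 (-2.43) were lowest. Of 25 muscle transcription factors, 6 were higher, against 32.6% of all genes, and 15 lower, against 43.6%. On both arrays 2 of the 25 were 2-fold higher, against 17.1% of all genes, and 3 were 2-fold lower, against 15.4%. Both 2-fold shares lay below those of all genes, and 20 of the factors were under 2-fold on at least 1 array. Foxf1 (1.68), Hey2 (1.33) and Gata6 (0.81) were highest and Tbx18 (-1.64), Hand1 (-1.46) and Myf6 (-1.21) lowest. Srf itself, chosen here after its value was seen because it binds the CArG box, was at -0.74 and -0.71.

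Genes of muscle energy metabolism leaned upward, with 11 of 15 higher (73.3%, against 32.6% of all genes) and 4 lower (26.7%, against 43.6%). On both arrays 9 of the 15 were 2-fold higher, against 17.1% of all genes, and 3 were 2-fold lower, against 15.4%. The median was 1.72. The cytochrome oxidase subunit Cox8b was at 5.82, glycogen phosphorylase Pygm at 4.53 and the ubiquitous mitochondrial creatine kinase Ckmt1 at 4.39. Brain-type creatine kinase (Ckb, -1.91), the adenine nucleotide carrier Slc25a4 (-1.58) and Pfkm (-1.28) were lowest. Among creatine kinases, then, the mitochondrial genes Ckmt2 and Ckmt1 and the muscle gene Ckm were higher in lung and Ckb was lower. Myoglobin (Mb), named after its value was seen, was at 4.39 and 4.33.

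**Figure D4:**
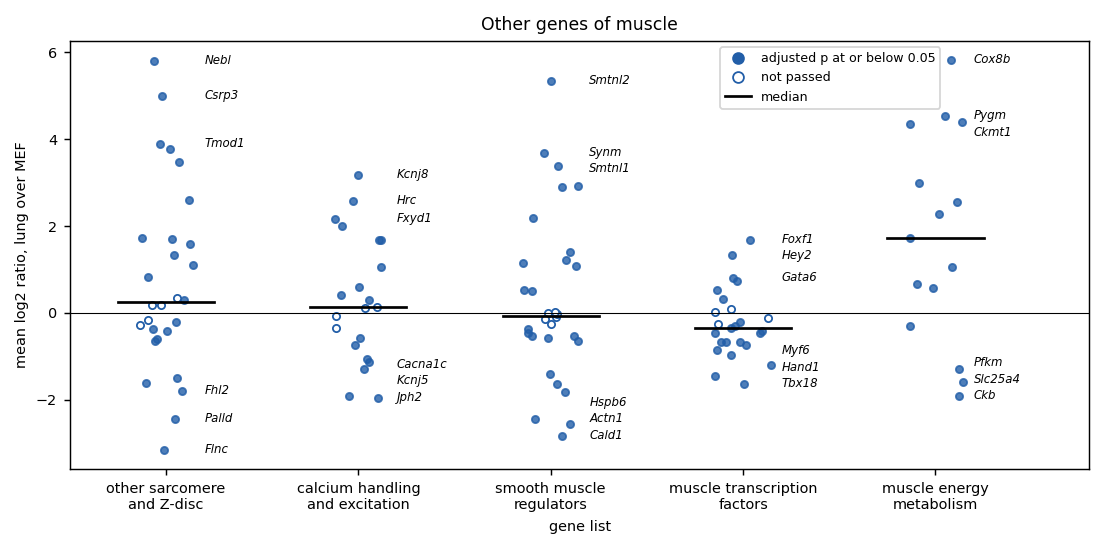
Mean log2 ratio of lung over MEF (y axis) of the genes in 5 further lists of muscle genes (x axis). Filled points passed limma's test at an adjusted p of 0.05 or below, open points did not, and black lines are medians, from -0.36 for transcription factors to 1.72 for energy metabolism. The 3 highest and 3 lowest genes past the test are named.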

How the data were processed

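Lung and MEF RNA were compared on 2 two-colour Agilent arrays. The authors deposited 1 log ratio per probe and array, read here as log2. Per the submitters' processing notes, Agilent Feature Extraction made these values; how it corrected background and balanced the dyes was not given in the sources used here. Of 41174 probes, 32664 had 1 gene symbol in the platform annotation, 45 had several and 8465 had none. Symbols were checked against RefSeq by Entrez identifier, and none needed changing. Probes of a gene were averaged, giving 19532 genes. Gene ratios were set against 0 in limma 3.58.1 under R 4.3.3 (intercept-only fit, eBayes, two-sided, Benjamini-Hochberg over all genes). Each gene had 1 residual degree of freedom and moderation added 1.215. MEF RNA was only the other channel, and variation among MEF cultures therefore does not enter the test. Having 2 arrays limits the precision.

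The genes were chosen by symbol, and the genes, roles and lists were chosen with earlier results of these data known. Every gene of the set could be named, and other muscle genes were named as the 3 highest and 3 lowest past the test. Some genes of the lists were not measured under a single symbol and were not used here. Alternatives were centring, the probe summary, the test, leaving out an array, the log base and, chosen after seeing the data, RefSeq-annotated probes alone. Promoter sequences are RefSeq's, build GRCm38.p6.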

Additional observations from a re-analysis of the deposited data

How the results depend on the processing

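Centring, the median of probes and RefSeq-annotated probes alone (chosen after seeing the data) gave 31 to 38 genes higher in lung, against 33 as reported, and 23 to 29 lower, against 28. Without moderation 14 were higher and 13 lower, and a test of differences beyond 2-fold left 23 higher and 13 lower. Receptor centring raised the median of all genes by 0.41 and median centring by 0.18. The share of all calls that were higher was 42.8% as reported, 51.3% with median centring and 63.6% with receptor centring. For the 68 genes it was 54.1%, 59.0% and 62.3%. Signs turned for Myh9 (0.18 with median centring, 0.41 with receptor centring) and, with receptor centring, for Myh3 (0.20), Myh13 (0.15), Myh15 (0.18) and Mybpc1 (0.11). With the median of probes, Ttn (0.10) and Myh8 (0.36) no longer passed and Ryr3 (-0.56) did. Both centrings gained Myh1, Mylk and Myl10 and lost Myl12a and Mybpc1. Median centring also lost Myh3, and receptor centring also lost Tnni1 and Myl6b. With receptor centring Myh9 also passed as higher (adjusted p = 0.00823 by limma). Myh3 then passed as higher instead of lower (adjusted p = 0.0487 by limma). RefSeq-annotated probes gained Mylk. Without either array in turn, 24 to 25 genes were 2-fold higher and 15 to 17 were 2-fold lower on the array left, with no test. Read as natural logarithms, 28 were 2-fold higher and 21 lower on both arrays. No paired analysis was possible because each array holds 1 lung sample against MEF and there is a single group of ratios.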
